A study of Homo sapiens with 11 samples.

Results

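The ATF4 and unfolded protein response genes are a set of 40 listed genes of the cell's response to amino acid shortage and to misfolded protein in the endoplasmic reticulum (ER). Each gene was read from the probe set that names it alone and has the highest mean over the 11 arrays, and all 40 were measured, among 19775 genes in all. The list falls into 12 genes of amino acid and serine supply and 11 genes of ATF4 and its regulators and targets. The other genes are 4 grouped as ER stress sensors and 13 ER chaperones and folding or disposal factors. The sensors are ATF6, EIF2AK3 and ERN1, and XBP1, a transcription factor activated by ERN1, is counted with them. The amino acid and serine genes are ATF4 targets that also depend on mTORC1 signalling, and are described apart from the ER chaperones.

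The cells were Reh, an established B-cell precursor leukaemia line with the ETV6-RUNX1 fusion gene, and every array came from Reh cells infected with virus so that they stably expressed miR-125b, controls included. The 2 control arrays came from cells given a scrambled precursor oligonucleotide at 66 µM. The 3 miR-99a arrays and the 3 miR-100 arrays came from cells given that oligonucleotide at 66 µM, and the 3 combination arrays from cells given 33 µM of each. Oligonucleotides were added again after 72 h, and RNA was taken 48 h after that. The labels speak of triplicate incubation but do not say whether numbered replicates were separate cultures, so the p-values measure only the spread between these arrays, which may be technical. They also do not say whether the infected line was a single clone, and what a replicate number stands for (a day, a culture, an array run) is not given in the sources used here.

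ATF4 is a transcription factor whose protein is made when the initiation factor eIF2 is phosphorylated by a stress kinase such as EIF2AK3 (PERK), and it raises genes for amino acid uptake, serine synthesis and tRNA charging. mTORC1, a growth-controlling complex whose kinase MTOR is a reported target of the miRNA family of miR-99a and miR-100, also feeds into ATF4. In the unfolded protein response, PERK works beside ERN1 (IRE1), which splices XBP1 mRNA, and ATF6, and together they raise ER chaperones; cells of the B lineage need this response when they become antibody-secreting cells. The arrays read mRNA only, not eIF2 phosphorylation, ATF4 protein or XBP1 splicing.

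The oligonucleotides are named for known mature miRNAs, and the RefSeq mature sequences (GRCh38.p14), not the oligonucleotides themselves, are shown because the seeds, bases 2 to 8 in capitals, decide which treatments share predicted targets. The mature sequences lie at chr21:16539101-16539122 (plus strand, miR-99a), chr11:122152275-122152296 (minus strand, miR-100) and, for miR-125b, at chr11:122099809-122099830 (minus strand) and chr21:16590253-16590274 (plus strand).
hsa-miR-99a-5p: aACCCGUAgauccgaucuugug
hsa-miR-100-5p: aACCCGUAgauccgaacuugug
hsa-miR-125b-5p: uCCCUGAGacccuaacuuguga
miR-99a and miR-100 share the seed and differ at 1 of 22 bases, U16A, counted from the 5′ end and written from miR-99a to miR-100. miR-125b, present in all cells, has another seed.

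Promoters of 4 members are shown because they hold elements known for the 2 arms of the list. RefSeq promoters (GRCh38.p14, 250 bases before to 50 after the start) matched 35 of the 40 members and were searched on both strands for 4 motifs. The CARE, TGATG then any base then AA, is the element bound by ATF4 with a C/EBP partner. The ERSE is CCAAT, then 9 bases, then CCACG, and the ERSE-II is ATTGG, then 1 base, then CCACG; both are elements of ATF6 and XBP1. The UPRE is TGACGTGG. The CARE was present in 3 of 8 amino acid and serine promoters (ASNS, SLC3A2, SLC7A1), 1 of 11 regulator promoters (CHAC1) and 1 of 12 chaperone promoters (HERPUD1), against 2.62% of 15384 promoters of the same length. The ERSE was present in HSPA5, HSP90B1, CALR and CANX among the chaperones and in XBP1 among the sensors, against 0.104% of all promoters. The ERSE-II was present in HERPUD1, SDF2L1 and HYOU1, against 0.098%, and the UPRE in HYOU1 only, where it overlaps an ERSE-II, against 0.962%. Sequences are given for the 250 bases before the start, on the gene's strand, with the matches in capitals: ASNS (chr7:97872409-97872658, minus strand) with a CARE, HSPA5 (chr9:125241344-125241593, minus strand) with an ERSE, HSP90B1 (chr12:103930160-103930409, plus strand) with 2 ERSEs on opposite strands, and HERPUD1 (chr16:56931892-56932141, plus strand) with a CARE on the other strand and an ERSE-II.
ASNS: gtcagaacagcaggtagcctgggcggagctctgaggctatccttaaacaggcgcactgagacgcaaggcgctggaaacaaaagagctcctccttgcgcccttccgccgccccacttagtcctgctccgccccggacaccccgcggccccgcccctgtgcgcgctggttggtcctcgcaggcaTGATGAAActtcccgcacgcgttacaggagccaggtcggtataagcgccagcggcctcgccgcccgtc
HSPA5: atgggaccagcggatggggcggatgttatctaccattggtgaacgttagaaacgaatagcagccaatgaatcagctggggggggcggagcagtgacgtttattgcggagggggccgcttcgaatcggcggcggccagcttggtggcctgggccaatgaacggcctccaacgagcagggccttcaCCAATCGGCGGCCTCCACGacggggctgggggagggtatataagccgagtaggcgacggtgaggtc
HSP90B1: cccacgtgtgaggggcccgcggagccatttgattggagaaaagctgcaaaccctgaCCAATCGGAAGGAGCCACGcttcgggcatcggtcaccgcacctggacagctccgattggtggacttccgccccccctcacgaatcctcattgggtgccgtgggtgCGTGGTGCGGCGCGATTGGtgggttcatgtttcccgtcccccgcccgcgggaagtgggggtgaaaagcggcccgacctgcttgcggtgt
HERPUD1: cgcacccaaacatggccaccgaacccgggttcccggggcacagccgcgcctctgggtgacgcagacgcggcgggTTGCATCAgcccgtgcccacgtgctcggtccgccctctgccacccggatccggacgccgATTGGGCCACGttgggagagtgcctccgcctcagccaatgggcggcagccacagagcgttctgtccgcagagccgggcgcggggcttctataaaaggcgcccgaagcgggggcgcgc
These matches describe the letters of the window and were not tested for binding.

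Array values are log2 signals, so a difference of 1 is a doubling of signal. Correlations between arrays over all genes were 0.9894 to 0.9982. The 3 arrays numbered replicate 3, all from treated cells, had correlations of 0.9977 to 0.998 among themselves, whereas those with the lower-numbered arrays of the same treatment were 0.9907 to 0.9924. They therefore stand apart, and each comparison with control is given with and without them. Among B-lineage markers DNTT, IGLL1, EBF1, PAX5 and RAG1 had medians of 11.26 to 13.11 and VPREB1 5.48, and 15 markers of other blood lineages and tissues had medians of 4.94 to 7.52. In RNA from whole cultures, fewer cells in a given state and less RNA per cell cannot be told apart. The number of arrays limits the precision throughout. A level is a property of the probe set as well as of the gene, so the levels of different genes are not ranked. Of the 40 members, 38 had a mean at or above 6.4, the median of all genes; VLDLR and ALDH1L2 were dimmer.

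limma fitted group means alone to all 11 arrays. No member was then called in any comparison of a treatment with control, at a Benjamini-Hochberg adjusted p under 0.05. The background was the same: 0 of 19775 genes (0%) were called in each of 6 comparisons, namely each treatment and the mean of all treatments with control, miR-100 with miR-99a, and the combination with the average of both single oligonucleotides. At an unadjusted p under 0.05 there were 198, 305 and 724 genes for the 3 treatments against control, 489 for all treatments, 194 for miR-100 against miR-99a and 451 for the combination against the single ones. Among the members 0 had such a p for miR-99a, 1 for miR-100 (PDIA6), 1 for the combination (MTHFD2), 2 for all treatments (both of these) and 0 in the comparisons between treatments. With the replicate number as a block, 1 gene was called for miR-100 against miR-99a and 1 gene for the combination against the single ones. Neither was a member. Against control the block called 863 of 19775 genes for the combination and 507 for all treatments, each with 3 members (ATF5 and CEBPB higher, PSPH lower). For miR-99a and miR-100 it called 5 and 7 genes and no member. Whether the numbers pair control with treated arrays could not be settled. Without the block, the 40 members ranged from -0.18 to 0.21 around control with miR-99a. The range was -0.20 to 0.13 with miR-100 and -0.22 to 0.29 with the combination, and the median standard error was 0.12. The 3 comparisons share the 2 control arrays, so their likeness is no independent evidence.

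**Figure D1:**
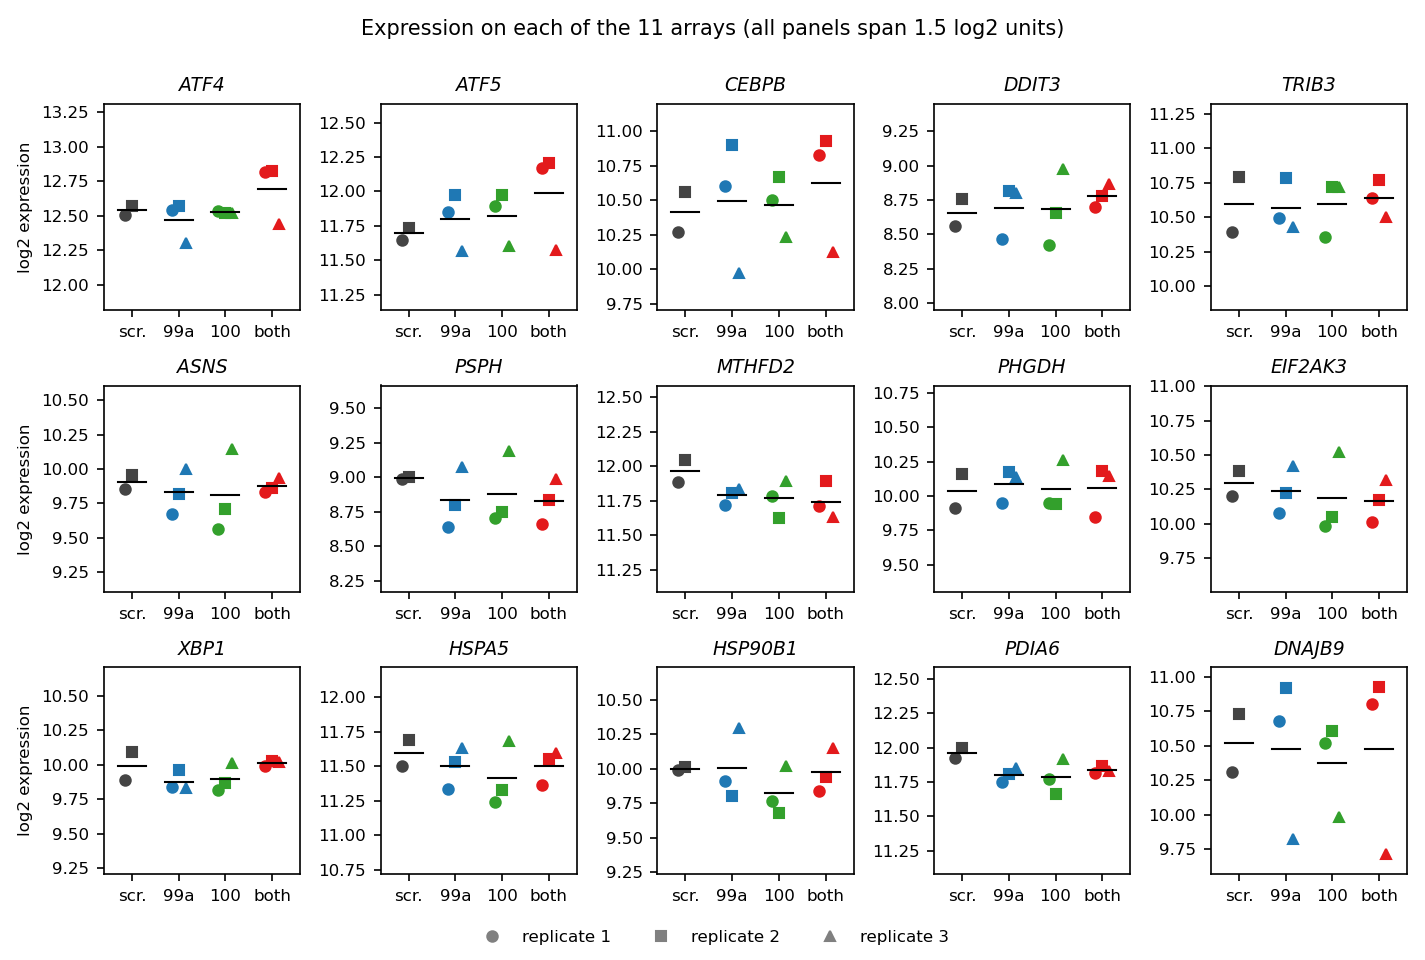
Log2 expression (y axis) of 15 members on each array, by group on the x axis (scrambled control, each single miRNA by its number, and both miRNAs), with replicates 1, 2 and 3 as circles, squares and triangles and the group mean as a line. In ATF5, CEBPB and DNAJB9 the triangles lie below all treated circles and squares, and in ASNS, PSPH, EIF2AK3, HSPA5 and HSP90B1 above them.

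Among the genes of serine synthesis and one-carbon supply, MTHFD2, the mitochondrial folate enzyme, had the lowest p of the amino acid and serine genes with miR-100 and the combination. It read 11.89 and 12.05 in control, 11.72, 11.81 and 11.84 with miR-99a, 11.79, 11.63 and 11.90 with miR-100, and 11.71, 11.89 and 11.64 with the combination. Control replicate 2 was the highest array and control replicate 1 lay within the treated range, so the groups overlapped. The miR-99a, miR-100 and combination differences from control were -0.18, -0.20 and -0.22 (SE 0.10 each), with unadjusted p of 0.105, 0.0767 and 0.0495, and none passed limma's adjusted p.

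The 3 serine synthesis enzymes lay on both sides of control, and none passed the test over all 11 arrays without the replicate block. PHGDH, which takes the first step, read 9.91 and 10.16 in control, 9.95, 10.18 and 10.13 with miR-99a, 9.95, 9.94 and 10.26 with miR-100, and 9.85, 10.18 and 10.14 with the combination, with differences of 0.05, 0.02 and 0.02 (SE 0.13). PSAT1, the transaminase of the next step, read 10.87 and 11.09 in control, 10.86, 10.97 and 10.89 with miR-99a, 10.81, 10.90 and 11.13 with miR-100, and 10.80, 10.87 and 10.87 with the combination, with differences of -0.07, -0.04 and -0.14 (SE 0.10). In both genes the treated arrays overlapped the controls. PSPH, the phosphatase of the last step, read 8.99 and 9.00 in control, 8.64, 8.80 and 9.08 with miR-99a, 8.71, 8.75 and 9.19 with miR-100, and 8.66, 8.83 and 8.99 with the combination. Its 6 treated arrays of replicates 1 and 2 (8.64 to 8.83) were all below both controls, whereas 2 of the 3 replicate 3 arrays were above them. Over all arrays its differences were -0.16, -0.11 and -0.17 (SE 0.16).

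ASNS, which makes asparagine, is a standard readout of ATF4. It read 9.85 and 9.96 in control, 9.67, 9.82 and 10.003 with miR-99a, 9.57, 9.71 and 10.14 with miR-100, and 9.84, 9.86 and 9.93 with the combination, with differences of -0.07, -0.10 and -0.03 (SE 0.15) and overlapping groups. The transporter genes were mixed. SLC3A2, the heavy chain that partners SLC7A5 and SLC7A11, read 8.45 and 8.66 in control, 8.74, 8.83 and 8.72 with miR-99a, 8.49, 8.59 and 8.80 with miR-100, and 8.50, 8.74 and 8.76 with the combination. Its 3 miR-99a arrays were above both controls, with a difference of 0.21 (SE 0.11, unadjusted p = 0.0893). SLC7A5, the large neutral amino acid transporter, read 10.21 and 10.38 in control, 10.43, 10.44 and 10.21 with miR-99a, 10.27, 10.29 and 10.54 with miR-100, and 10.50, 10.51 and 10.40 with the combination. The 3 combination arrays were above both controls, with a difference of 0.17 (SE 0.10, unadjusted p = 0.128). ALDH1L2, the mitochondrial folate dehydrogenase, was dim throughout, at 5.57 and 5.51 in control, 5.49, 5.50 and 5.54 with miR-99a, 5.52, 5.49 and 5.38 with miR-100, and 5.50, 5.58 and 5.59 with the combination, and its differences were at most 0.08 in size.

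Over the 12 amino acid and serine genes, 8, 9 and 7 lay below control for miR-99a, miR-100 and the combination, with medians of -0.057, -0.064 and -0.024. After quantile normalization between arrays 6, 6 and 5 did, with medians of -0.001, 0.002 and 0.033. For miR-100 and the combination the sign of the median thus turned with the scaling. The median over all genes in the deposited values was -0.006, -0.008 and -0.004. It was -0.041, -0.058 and -0.079 where mean signal was 8 to 10, and -0.068, -0.079 and -0.066 where it was 10 to 12. All of the amino acid and serine genes but ALDH1L2 had a mean signal in these ranges. The part of signal level in their offset was not tested.

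ATF4 mRNA itself read 12.51 and 12.57 in control, 12.54, 12.57 and 12.30 with miR-99a, 12.53, 12.52 and 12.52 with miR-100, and 12.82, 12.82 and 12.44 with the combination. The combination arrays of replicates 1 and 2 were the 2 highest of all 11, and the combination array of replicate 3 was below both controls. Over all arrays the combination differed from control by 0.16 (SE 0.12) and from the single oligonucleotides by 0.20 (SE 0.09, unadjusted p = 0.0565, adjusted p near 1), whereas miR-99a and miR-100 alone differed from control by -0.07 and -0.015. ATF5, a relative of ATF4 that is translated under the same stress, read 11.65 and 11.74 in control, 11.85, 11.97 and 11.57 with miR-99a, 11.90, 11.97 and 11.60 with miR-100, and 12.17, 12.21 and 11.57 with the combination. All 6 treated arrays of replicates 1 and 2 were above both controls and all 3 of replicate 3 were below them. CEBPB, a C/EBP partner of ATF4, read 10.27 and 10.56 in control, 10.60, 10.90 and 9.97 with miR-99a, 10.50, 10.67 and 10.24 with miR-100, and 10.83, 10.93 and 10.12 with the combination. Its replicate 3 arrays, at or below 10.24, were below both controls, and of the other 6 treated arrays 5 were above both controls and miR-100 replicate 1 lay between them.

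None of the stress effectors downstream of ATF4 passed the test against control. DDIT3 (CHOP), the factor linked to death after lasting ER stress, read 8.56 and 8.75 in control, 8.47, 8.82 and 8.80 with miR-99a, 8.42, 8.66 and 8.97 with miR-100, and 8.70, 8.78 and 8.87 with the combination, with differences of 0.04, 0.03 and 0.13 (SE 0.15). TRIB3, a CHOP target that damps AKT signalling, read 10.40 and 10.79 in control, 10.49, 10.79 and 10.43 with miR-99a, 10.36, 10.72 and 10.72 with miR-100, and 10.64, 10.77 and 10.50 with the combination, with differences of -0.03, 0.005 and 0.045 (SE 0.16). In both, control replicate 2 was higher than control replicate 1, by 0.20 and 0.40, more than any difference from control. CHAC1, a glutathione-degrading enzyme, read 7.34 and 7.31 in control, 7.53, 7.58 and 7.27 with miR-99a, 7.41, 7.41 and 7.31 with miR-100, and 7.41, 7.496 and 7.30 with the combination, with a difference of 0.13 (SE 0.10) for miR-99a. SESN2, a leucine-sensing brake on mTORC1, read 8.06 and 8.06 in control, 8.08, 8.21 and 7.99 with miR-99a, 8.06, 8.13 and 8.23 with miR-100, and 8.18, 8.21 and 8.13 with the combination, and all 3 combination arrays were above both controls, by 0.11 on average (SE 0.08, unadjusted p = 0.182). DDIT4 (REDD1), another brake on mTORC1, read 6.76 and 6.63 in control, 6.495, 6.64 and 6.84 with miR-99a, 6.62, 6.57 and 6.95 with miR-100, and 6.54, 6.57 and 6.81 with the combination. PPP1R15A (GADD34), which undoes eIF2 phosphorylation, read 6.61 and 6.76 in control, 6.88, 6.82 and 6.62 with miR-99a, 6.82, 6.80 and 6.55 with miR-100, and 6.66, 6.85 and 6.68 with the combination. In these last 2 genes the treated arrays spanned the controls. Over the 11 genes of this group, 7, 8 and 9 were above control, with medians of 0.039, 0.028 and 0.078. After quantile normalization 9 were above it in each comparison. No member of the group passed the test when group means alone were fitted to all 11 arrays.

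Of the ER stress sensors, EIF2AK3 (PERK) read 10.20 and 10.38 in control, 10.08, 10.23 and 10.42 with miR-99a, 9.99, 10.05 and 10.52 with miR-100, and 10.01, 10.17 and 10.32 with the combination, with differences of -0.05, -0.11 and -0.13 (SE 0.16). XBP1, the factor activated by IRE1, read 9.89 and 10.10 in control, 9.84, 9.96 and 9.84 with miR-99a, 9.82, 9.87 and 10.01 with miR-100, and 9.99, 10.03 and 10.02 with the combination. Its miR-99a and miR-100 differences were -0.11 and -0.09 (SE 0.08), against 0.02 for the combination, and the combination differed from the single oligonucleotides by 0.12 (SE 0.07, unadjusted p = 0.0872). ERN1 read 7.65 and 8.09 in control, 7.90, 8.05 and 8.04 with miR-99a, 7.65, 7.97 and 8.10 with miR-100, and 7.84, 8.03 and 7.92 with the combination, and its lowest arrays were control replicate 1 and miR-100 replicate 1.

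Among the ER chaperones, PDIA6, a disulfide isomerase, was lower on all 9 treated arrays than on both controls. It read 11.92 and 12 in control, 11.75, 11.81 and 11.85 with miR-99a, 11.77, 11.67 and 11.92 with miR-100, and 11.82, 11.87 and 11.83 with the combination. The margin was narrow, with miR-100 replicate 3 at 11.916 and control replicate 1 at 11.921. The differences were -0.16, -0.18 and -0.12 (SE 0.08), with unadjusted p of 0.0753, 0.0494 and 0.15, and none passed the adjustment. HSPA5 (BiP), the main ER chaperone and the classical readout of the response, read 11.50 and 11.69 in control, 11.34, 11.53 and 11.63 with miR-99a, 11.24, 11.32 and 11.68 with miR-100, and 11.36, 11.55 and 11.59 with the combination, with differences of -0.10, -0.18 and -0.10 (SE 0.14). HSP90B1 (GRP94), the ER member of the HSP90 family, read 9.99 and 10.01 in control, 9.91, 9.80 and 10.30 with miR-99a, 9.77, 9.68 and 10.02 with miR-100, and 9.84, 9.94 and 10.15 with the combination, with differences of 0.001, -0.18 and -0.03 (SE 0.15). In both genes the lowest arrays were miR-100 replicates 1 and 2, and the replicate 3 arrays were above every treated array of replicates 1 and 2.

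The lectin chaperones that fold glycoproteins, CALR and CANX, did not pass the test. CALR read 9.06 and 9.07 in control, 9.04, 9.10 and 9.10 with miR-99a, 9.08, 8.95 and 9.01 with miR-100, and 8.99, 8.97 and 8.98 with the combination. Its 3 combination arrays were below both controls, with a difference of -0.09 (SE 0.06, unadjusted p = 0.204). CANX read 11.73 and 11.68 in control, 11.55, 11.64 and 11.70 with miR-99a, 11.53, 11.44 and 11.74 with miR-100, and 11.64, 11.73 and 11.66 with the combination, with a miR-100 difference of -0.13 (SE 0.09). SDF2L1, a partner of HSPA5, read 9.19 and 9.16 in control, 9.08, 9.24 and 8.96 with miR-99a, 9.07, 8.86 and 9.13 with miR-100, and 9.03, 9.12 and 8.91 with the combination, with differences of -0.09, -0.16 and -0.16 (SE 0.10). DNAJC3, a co-chaperone that inhibits PERK, read 9.13 and 9.14 in control, 8.87, 8.99 and 9.22 with miR-99a, 8.89, 8.86 and 9.39 with miR-100, and 8.90, 9.01 and 9.04 with the combination, with differences of -0.10, -0.08 and -0.15 (SE 0.15).

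DNAJB9 (ERdj4), a co-chaperone of HSPA5 and a target of spliced XBP1, had the widest range of all members. It read 10.31 and 10.73 in control, 10.68, 10.92 and 9.82 with miR-99a, 10.52, 10.61 and 9.98 with miR-100, and 10.80, 10.92 and 9.71 with the combination. The 3 replicate 3 arrays were the lowest of the 11, below control replicate 1, so that the group means differed from control by only -0.05, -0.15 and -0.04, with an SE of 0.38. The 13 chaperone and folding genes were below control in 9, 13 and 12 cases, with medians of -0.048, -0.127 and -0.055, and after quantile normalization in 7, 11 and 7 cases, with medians of -0.002, -0.056 and -0.014. The medians of all genes were -0.041, -0.058 and -0.079 where mean signal was 8 to 10, and -0.068, -0.079 and -0.066 where it was 10 to 12. Every chaperone had a mean signal in one of these ranges, and the part of signal level in the offset was not tested.

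The remaining 12 members had differences from control between -0.14 and 0.10 in the 3 comparisons, and none had an unadjusted p under 0.05. They were SHMT2, a mitochondrial enzyme that splits serine, the transporters SLC7A1 and SLC7A11, WARS1, CEBPG, the lipoprotein receptor VLDLR, ATF6, the disulfide isomerases PDIA3 and PDIA4, HERPUD1 and SEL1L of ER disposal, and the chaperone HYOU1. The lowest was SLC7A11 with miR-100, whose arrays ran from 9.44 to 10.01 against 9.75 and 9.89 in control. The highest was VLDLR with miR-99a, whose arrays ran from 4.98 to 5.20 against 5.04 and 4.94 in control. In both the groups overlapped.

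With the replicate 3 arrays left out (8 arrays), 290 genes (1.47%) were called for the combination against control, 198 (1%) for the mean of all treatments, 1 (0.00506%) for miR-100 against miR-99a, and 0 (0%) for each single oligonucleotide against control and for the combination against the single ones, which had 1902, 3412 and 1269 genes at an unadjusted p under 0.05. Members called were ATF5 and CEBPB, both higher. ATF5 was higher by 0.50 with the combination (SE 0.08, limma adjusted p = 0.0121) and by 0.32 over all treatments (SE 0.07, adjusted p = 0.0425). Within replicate 1 and replicate 2 the combination was above control by 0.52 and 0.47, miR-99a by 0.201 and 0.235, and miR-100 by 0.244 and 0.232. CEBPB was higher by 0.46 with the combination (SE 0.10, adjusted p = 0.0301), and by 0.556 and 0.366 within replicates 1 and 2; over all treatments it read 0.32 and did not pass (adjusted p = 0.056). The calls held for the combination when quantile normalization was added, at 0.39 for ATF5 and 0.46 for CEBPB (adjusted p = 0.0263 and 0.0422). Of the 4 ATF5 probe sets the brightest 3 read 0.495, 0.46 and 0.082 for the combination on these arrays and the dimmest -0.009.

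**Figure D2:**
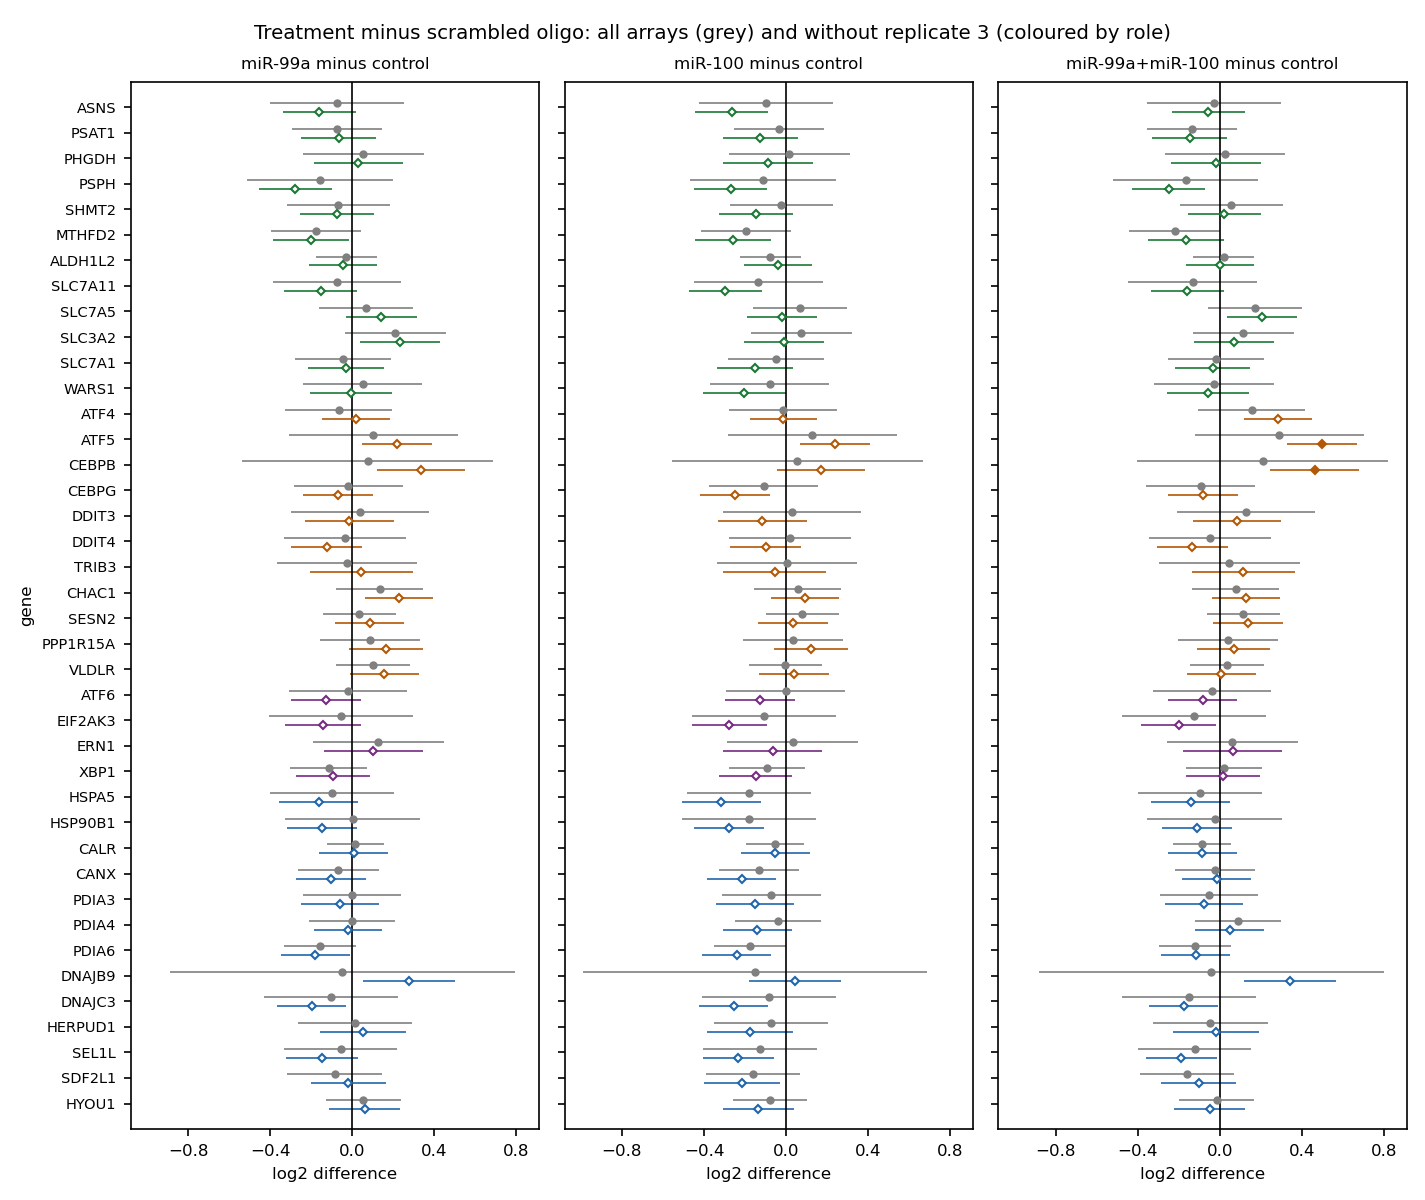
Log2 difference from control (x axis) of the 40 members (y axis) for the 3 treatments, over all 11 arrays (grey circles) and over the 8 arrays of replicates 1 and 2 (diamonds coloured by role, green for amino acid and serine genes, orange for ATF4 and its regulators, purple for sensors, blue for chaperones), with 95% intervals. Filled diamonds passed an adjusted p under 0.05, which are ATF5 and CEBPB in the combination, and no grey circle passed.

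Several other members came close on these 8 arrays without passing. ATF4 differed by 0.28 with the combination (SE 0.08, adjusted p = 0.0725), at 0.31 and 0.25 within replicates 1 and 2, against 0.018 with miR-99a and -0.0135 with miR-100. The combination exceeded the average of the single treatments by 0.283 in replicate 1, 0.278 in replicate 2 and 0.028 in replicate 3 (adjusted p = 0.192 over the first 2). For ATF5 these gaps were 0.299, 0.235 and -0.01, and for CEBPB 0.275, 0.143 and 0.017. DNAJB9 differed from control by 0.34 with the combination (adjusted p = 0.109) and PSPH by -0.25 (adjusted p = 0.141).

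With miR-100, 12 of 12 amino acid and serine genes and 12 of 13 chaperones were below control on these 8 arrays, with medians of -0.149 and -0.215 against -0.013 over all genes. After quantile normalization of the same arrays 9 of 12 and 10 of 13 were, with medians of -0.07 and -0.081. The share of all genes below control is not given for these arrays. All of these members but ALDH1L2 had a mean signal of 8 to 12, so that -0.013 is not matched for signal. Over all arrays the miR-100 median of all genes was -0.058 at mean signals of 8 to 10 and -0.079 at 10 to 12. Such medians are not given for the 8 arrays, and the part of signal level was not tested. The lowest members of these groups on the 8 arrays were HSPA5 at -0.32 (SE 0.09, adjusted p = 0.113), SLC7A11, the cystine transporter, at -0.30 (SE 0.09, adjusted p = 0.112) and HSP90B1 at -0.28 (SE 0.08, adjusted p = 0.112). None passed, and the test of miR-100 against miR-99a called no member. The next brightest HSPA5 probe set read 7.32 and 7.41 in control and 7.33 and 7.38 with miR-100. That of SLC7A11 read 8.63 and 8.78 in control and 8.565 and 8.595 with miR-100. For HSP90B1 it read 7.27 and 6.97 in control and 6.66 and 6.73 with miR-100.

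**Figure D3:**
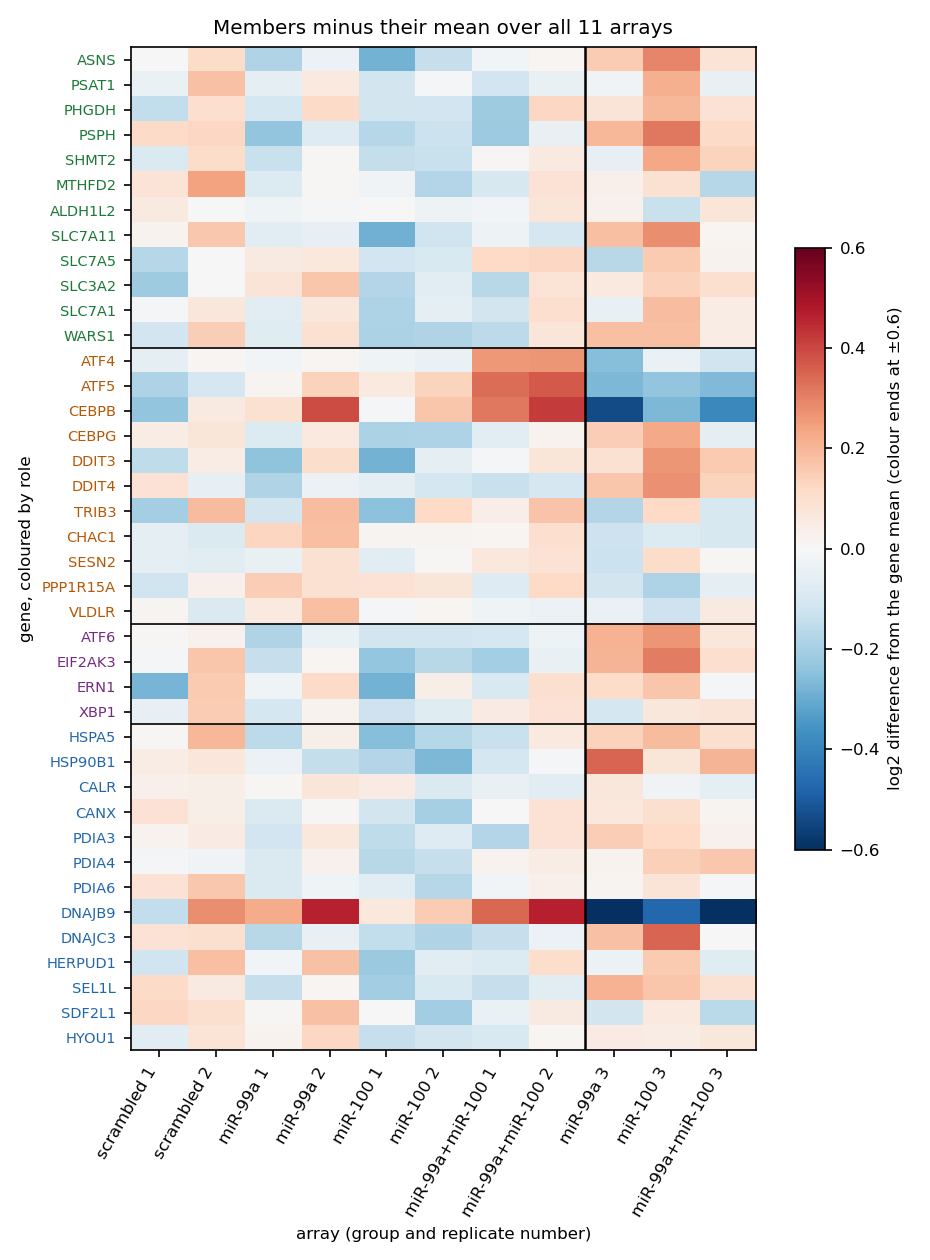
Heat map of the 40 members (rows, label colour by role) on the 11 arrays (columns, replicate 3 to the right of the line), as the log2 difference from each gene's mean over all arrays, red above and blue below, with colours ending at ±0.6. In the 3 replicate 3 columns DNAJB9 and CEBPB are blue and PSPH, EIF2AK3 and HSP90B1 red.

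The largest differences among the members followed the replicate number. Replicate 3 was compared with replicates 1 and 2 over the 9 treated arrays, with treatment in the fit. Of all genes 5986 (30.3%) were called, 3503 (17.7%) higher and 2483 (12.6%) lower. Of the 40 members 20 were called, 14 higher and 6 lower. Calls were more frequent at brighter signal, at 43.9% of genes higher and 22.7% lower for mean signals of 8 to 10, and 28.3% higher and 45.7% lower for 10 to 12. Of the 17 members at 8 to 10, 10 were called higher and 0 lower, and of the 16 members at 10 to 12, 3 were called higher and 3 lower. With both directions pooled, the members' share of calls was below that of all genes in these 2 ranges. At 8 to 10 their share called higher was above that of all genes and their share called lower was below it. Of the members, 10 had all 3 replicate 3 arrays above the 6 others, against 14.9% of all genes, and 4 had all 3 below (ATF5, CEBPB, CHAC1 and DNAJB9), against 11% of all genes. The standard error was 0.07 for every member, since limma drew the spread of each gene almost wholly to the common value.

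Among ATF4 and its regulators 5 of 11 fell and 3 rose. CEBPB fell by 0.63 (adjusted p = 6.18e-18), ATF5 fell by 0.43 (adjusted p = 5.61e-09), and ATF4 fell by 0.21 (adjusted p = 0.00749). PPP1R15A and CHAC1 fell by 0.19 and 0.18. In the same group DDIT4 rose by 0.29, DDIT3 by 0.24 and CEBPG, another C/EBP partner of ATF4, by 0.18. SESN2, TRIB3 and VLDLR did not pass, with values of -0.03, -0.08 and -0.07. The ATF4 difference was -0.255 in miR-99a, -0.005 in miR-100 and -0.382 in the combination; its call was lost without miR-99a replicate 3 (-0.193) or combination replicate 3 (-0.13), and after quantile normalization the difference was 0.005. CEBPG's other bright probe set read -0.034.

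Of the 12 amino acid and serine genes 5 rose and 0 fell, with a median of 0.137 against 0.001 over all genes. PSPH rose by 0.36 (adjusted p = 1.83e-06), ASNS by 0.28 (adjusted p = 0.000229), SLC7A11 by 0.27, WARS1, the tryptophanyl-tRNA synthetase, by 0.21 and PHGDH by 0.17. PSPH was higher in each treatment, by 0.359, 0.467 and 0.246. MTHFD2, PSAT1, SHMT2, ALDH1L2, SLC7A5, SLC3A2 and SLC7A1 did not pass, with values from -0.02 to 0.16. Without miR-100 replicate 3 the calls of ASNS, SLC7A11, WARS1 and PHGDH were lost and the differences were 0.1 to 0.172. SLC7A11's other bright probe set read 0.001. With the mean of a gene's probe sets the calls of ASNS, SLC7A11 and PHGDH were also lost, at 0.122, 0.091 and 0.171.

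Of the 4 sensors EIF2AK3 rose by 0.33 and ATF6 by 0.27 (adjusted p = 1.05e-05 and 0.000349), while XBP1 and ERN1 read 0.04 and 0.12. A second ERN1 probe set of like signal read -0.485. Of the 13 chaperones 4 rose, HSP90B1 by 0.33, DNAJC3 by 0.29, SEL1L, a part of the ER disposal ligase, by 0.26 and HSPA5 by 0.25, and DNAJB9 fell by 0.90 (adjusted p = 1.49e-34). DNAJB9 was lower in each treatment, with differences of -0.974 for miR-99a, -0.58 for miR-100 and -1.15 for the combination, and its 3 probe sets read -0.901, -0.825 and -0.137. PDIA3, PDIA4, PDIA6, CANX, CALR, HERPUD1, HYOU1 and SDF2L1 did not pass, with values from -0.07 to 0.16. With the mean of a gene's probe sets the calls of SEL1L and DNAJC3 were lost, at 0.074 and 0.111. Without miR-100 replicate 3 those of DNAJC3 and HSPA5 were lost, at 0.184 and 0.167. The dimmer probe sets read 0.013, -0.024 and 0.046 for SEL1L and 0.189, -0.022 and -0.016 for DNAJC3. DNAJB9 thus moved opposite to the 4 chaperone genes that rose, of which only HSP90B1 held its call under every alternative.

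**Figure D4:**
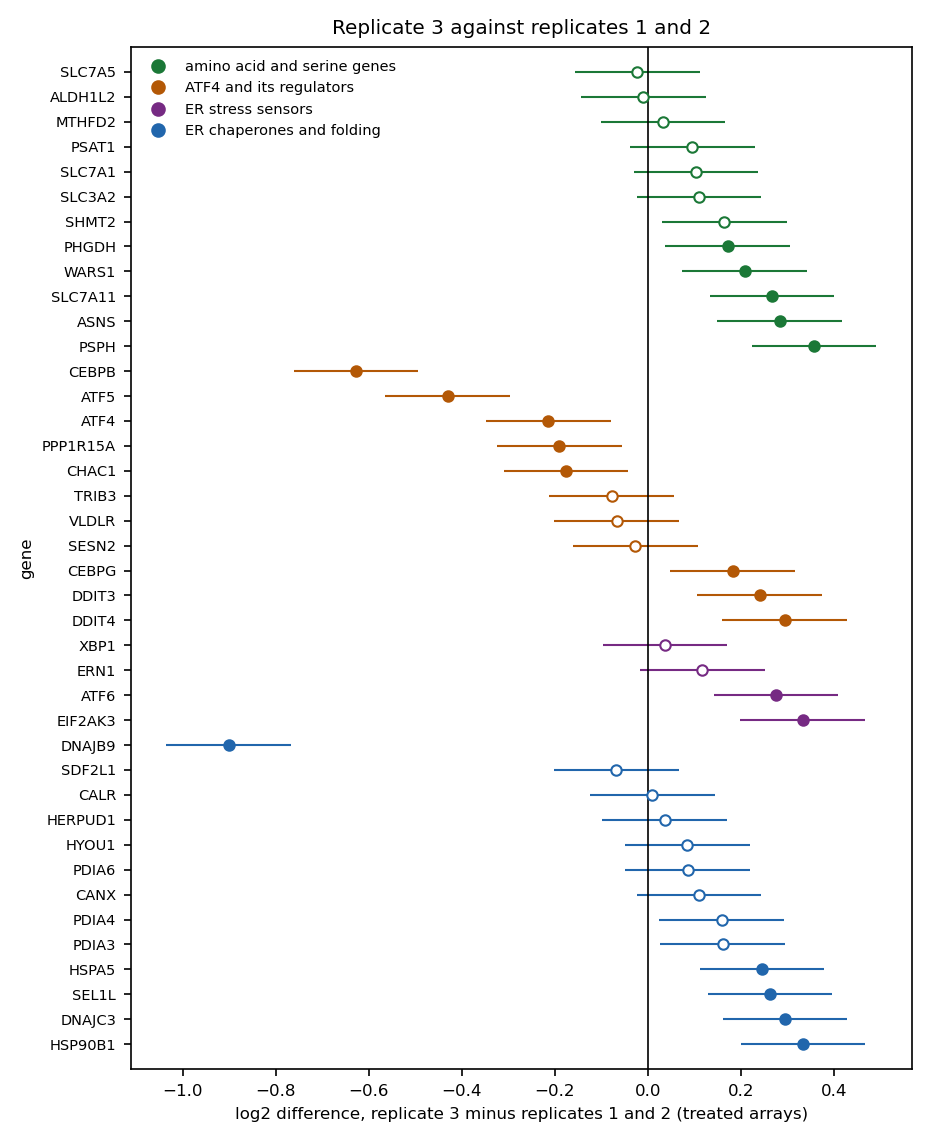
Log2 difference of replicate 3 from replicates 1 and 2 over the 9 treated arrays (x axis) for the 40 members (y axis), ordered within role, with 95% intervals and filled points for an adjusted p under 0.05. DNAJB9 (-0.90), CEBPB (-0.63) and ATF5 (-0.43) lie farthest left, and PSPH (0.36) farthest right.

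Of the 20 calls, 8 held under every alternative run for this comparison: PSPH, ATF5, CEBPB, DDIT4, ATF6, EIF2AK3, HSP90B1 and DNAJB9. DNAJB9 ranged from -1.062 to -0.621 and CEBPB from -0.767 to -0.552 over them. Without miR-100 replicate 3, 12 members were called, 6 higher and 6 lower. With quantile normalization 21 rose and 5 fell. With the mean of all probe sets of a gene 9 rose and 6 fell. Over all genes 5008 to 6118 were called when 1 array was left out. The shares of all genes called in each direction are not given for these settings, so the counts describe the members alone. Whether the replicate 3 difference itself differed between treatments was tested for each pair of treatments, and no gene was called (lowest adjusted p 0.318 to 0.432 over the 3 pairs, with 595 to 2287 genes at an unadjusted p under 0.05).

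The replicate 3 difference moved with signal over all genes. Its median was 0.126 for genes with a mean of 8 to 10, -0.092 for 10 to 12 and -0.231 for 12 to 16, the range of ATF4. Of the 16 members at 10 to 12, DNAJB9, CEBPB and ATF5 lay below their range's median and the other 13 above it, of which EIF2AK3, HSPA5 and PHGDH were called. The 3′ minus 5′ signal of ACTB, a measure of RNA quality, was 2.519 to 2.853 on replicate 3 and 2.455 to 3.171 on the other treated arrays, and that of GAPDH 0.562 to 0.715 and 0.53 to 0.63. The summed linear signal of the 15 markers of other lineages was 1087.5 to 1104.6 and 1062.1 to 1124.2, and the median B-lineage signal 11.331 to 11.421 and 11.056 to 11.351. None of the 15 other-lineage markers was called. No control array numbered replicate 3 was analysed here, so no treatment was compared with control within that number, and what sets replicate 3 apart cannot be told apart from the number itself. The part of signal range, GAPDH signal and B-lineage signal in the member differences was not tested.

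**Figure D5:**
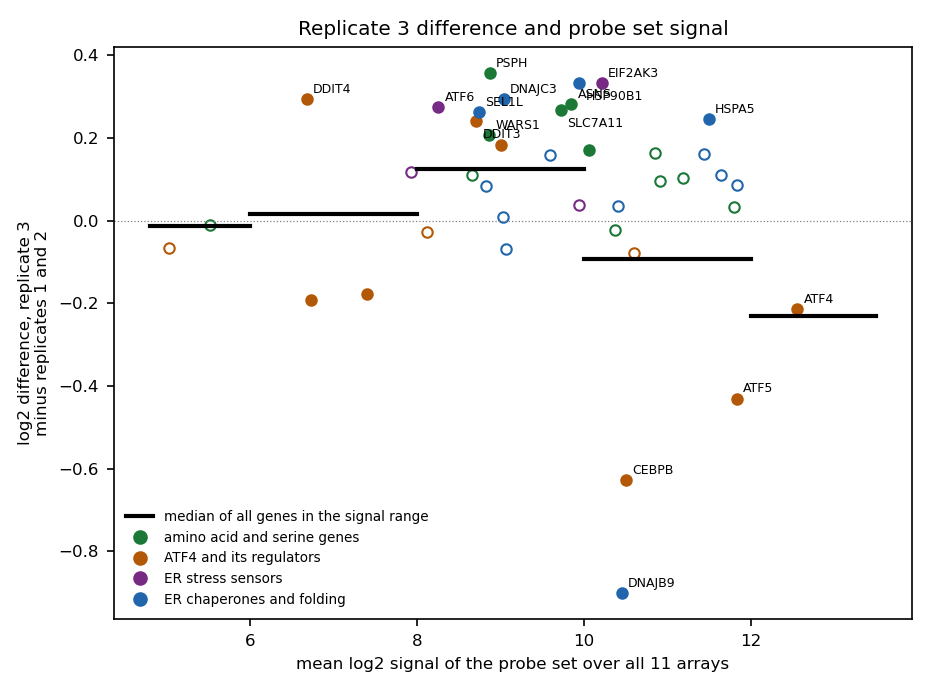
Log2 difference of replicate 3 from replicates 1 and 2 (y axis) of the 40 members against the mean log2 signal of their probe set over 11 arrays (x axis), coloured by role and filled where called, with the median of all genes in each signal range as black bars. ATF4 lies at the bar of its range, whereas CEBPB, DNAJB9 and ATF5 lie below theirs.

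Other genes of the pathways, from wider lists, also differed in replicate 3. On the amino acid side 16 of 34 rose and 4 fell, against 17.7% and 12.6% of all genes. Of the 13 at mean signals of 8 to 10, 5 rose and 3 fell, against 43.9% and 22.7% of all genes there, and of the 11 at 10 to 12, 9 rose and 1 fell, against 28.3% and 45.7%. The 10 aminoacyl-tRNA synthetases other than WARS1, which load amino acids onto tRNA, all rose, with a median of 0.412; EPRS1 rose by 0.52, TARS1 by 0.50 and LARS1 by 0.48. EIF4EBP1, the mTORC1-controlled inhibitor of translation that ATF4 raises, fell by 0.70, JDP2 fell by 0.48, VEGFA fell by 0.34 and SLC1A5, a glutamine transporter, fell by 0.17. Against control over all arrays the same synthetases had medians of -0.022, -0.049 and 0.001, and none was called. On the 8 arrays of replicates 1 and 2 all 10 were below control with miR-99a and with miR-100, with medians of -0.153 and -0.234. With the combination 8 of 10 were, with a median of -0.058. None was called in these 3 comparisons. Medians of all genes at like signal are not given for these 8 arrays, and the part of signal level was not tested.

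On the ER side 8 of 29 other genes rose and 9 fell, against 17.7% and 12.6% of all genes. Of the 13 at 8 to 10, 3 rose and 4 fell, and of the 10 at 10 to 12, 3 rose and 4 fell, so these counts stand near or below the shares of all genes given for the same ranges. Members of the translocation channel and its partners went both ways: SEC63 and SEC61A1 rose by 0.38 and 0.35, while SSR3 and SEC61B fell by 0.67 and 0.61. DERL2, of ER disposal, fell by 0.54. Against control over all arrays none of these 29 genes was called.

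Replicates 1 and 2 differed much less. In the same fit 31 genes (0.157%) and no member were called between them. At an unadjusted p under 0.05 there were 1266 genes and 9 members. Of the 40 members 37 were higher in replicate 2, with a median of 0.076 against 0.009 over all genes, and the lowest p was that of TRIB3, at 0.26 (SE 0.08, adjusted p = 0.212). The share of all genes higher in replicate 2 is not given here. Since 38 members had a mean at or above the median signal of all genes, that 0.009 is not matched for signal. The part of signal level was not tested.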

How the data were processed

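RNA from 11 samples of a human cell line was measured on Affymetrix arrays. The log2 values of the series value table were used as deposited by the authors; the normalization behind them is not given in the sources used here, and array medians of 5.95 to 5.984 show that the arrays had been brought to a common centre. Of 54675 probe sets, 1801 name several genes and 11777 none, which includes 56 of the 62 control probe sets; without the other 6 controls, 41091 that name 1 gene were used; gene identifiers of 41037 matched RefSeq and symbols were updated through it. For each of 19775 genes the brightest probe set, by mean over all arrays, was kept.

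limma 3.58.1 in R 4.3.3 (lmFit and eBayes) fitted group means to all 11 arrays and, for the replicate numbers, treatment and number to the 9 treated arrays. p-values are two-sided and were adjusted over all genes by the Benjamini-Hochberg method, and a gene was called at an adjusted p under 0.05. The scripts were tested on simulated data. Same-numbered arrays of different treatments deviated together from their group means (correlations of 0.168 to 0.816 in 9 of 9 pairs). Arrays numbered 1 and 2 of different treatments also did, at 0.358 to 0.423. In replicate 2 the same-numbered miR-100 and combination arrays had 0.168. Replicate 3 stands apart, which alone raises these correlations, so they could not settle whether the numbers 1 and 2 pair the treatments. For control with same-numbered treated arrays the range was -0.152 to 0.438. The control arrays gave equal correlations of opposite sign with every treated array. These values therefore could not settle whether the numbers pair control with treated arrays.

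The members and lists were chosen with earlier results of these data known, as was the replicate 3 comparison. Values on every array are printed for members called in a comparison with control or between treatments, for the 3 smallest p per arm and comparison with control, for the 5 smallest p per direction in replicate 3, and for 11 members that the rule lists by name. Alternatives were quantile normalization, brighter genes only, the mean of a gene's probe sets, the replicate block, replicate 3 as a term, replicates 1 and 2 only and leaving out each array; quantile normalization with replicates 1 and 2 only, and the replicate 3 difference by treatment, were chosen after seeing the data. Sequences are from RefSeq (GRCh38.p14).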

Additional observations from a re-analysis of the deposited data

How the results depend on the processing

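In the comparisons with control no gene or member was called after quantile normalization, with brighter genes only, with the mean of probe sets, or with any 1 array left out; leaving out a control array leaves 1 control, assumed to vary like the other groups. With the replicate block, 5 genes were called for miR-99a, 7 for miR-100, 863 for the combination and 507 for all treatments. In each of the 2 comparisons between treatments it called 1. Whether the number pairs control with treated arrays could not be settled. The block called 3 members for the combination (ATF5 0.43, CEBPB 0.42, PSPH -0.29) and 3 for all treatments (0.32, 0.32 and -0.27). With replicate 3 as a term, 443 genes and 2 members were called for the combination and 24 genes for all treatments. Replicates 1 and 2 only gave 290 genes and 2 members, 198 genes and 1 member, and 1 gene for miR-100 against miR-99a, where the regulators' median moved from -0.01 to -0.101. Adding quantile normalization to these, chosen after seeing the data, gave 33 genes for miR-99a, 169 genes and 2 members for the combination, and 362 genes and 2 members for all treatments. Leaving out 1 array, the regulators' median for miR-99a ran from -0.024 to 0.121 (the latter without control replicate 2). In replicate 3, quantile normalization moved the medians of the amino acid and serine genes to 0.236 and of the chaperones to 0.195 and turned ATF4 to 0.005. Leaving out 1 array there gave 12 to 20 called members and a regulators' median of -0.155 to -0.02. Replicate 2 against 1 called 9 genes after quantile normalization, 0 with the mean of probe sets, and 4 to 130 with 1 array left out (130 without miR-100 replicate 2). The cause of these changes was not tested.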
